A study of Mus musculus with 26 samples.

Results

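The endothelin system was followed in the mouse aorta through 6 genes: the ligand genes Edn1 and Edn3, the receptor genes Ednra and Ednrb, and the converting enzyme genes Ece1 and Ece2. They were taken by name, through the Ensembl identifiers that the mm10 annotation gives them, and all 6 were found among the 54532 identifiers counted. The RNA came from male mice in 26 libraries. Of these, 16 were from untreated mice, in 4 groups of 4: ascending aorta of Fbn1 C1041G/+ mice, ascending aorta of wild-type littermates, descending aorta of Fbn1 C1041G/+ mice, and descending aorta of wild-type littermates. The other 10 were from the ascending aorta of Fbn1 C1041G/+ mice, 5 given AGT-ASO and 5 given a control ASO, so that every antisense-treated mouse carried the mutation. C1041G is a missense change in 1 copy of the gene for fibrillin-1, a microfibril protein of elastic tissue, carried by all cells of the mouse and used as a model of Marfan syndrome. AGT-ASO is an antisense oligonucleotide against the mRNA of angiotensinogen, whose main source is the liver. The labels give neither age nor the dose and duration of the oligonucleotides.

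Endothelins are short peptides cut from larger precursors, first by furin-type proteases and then, at the last step, by the membrane metalloproteases ECE1 and ECE2. In an artery, endothelin-1 is made mainly by the endothelium and acts on the type A receptor (ETA) of the underlying smooth muscle, which couples to Gq proteins and causes contraction. The type B receptor (ETB) binds endothelin-1 and endothelin-3 alike, is present on endothelium, where it leads to nitric oxide and prostacyclin release, and together with endothelin-3 guides neural crest cells that become melanocytes and enteric neurons.

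The libraries held 17171652 to 28554356 counts, and each correlated with the others of its group at a mean r of at least 0.980 on log2 CPM. CPM (counts per 1e+06 counts of the library) were scaled by TMM, a factor that offsets differences in library composition. Smooth muscle markers were abundant in every library, at a summed level of 16690 to 32282 CPM over 8 genes. The missense change leaves Fbn1 counts in place, so that the level is no check of the genotype: Fbn1 averaged 358 ± 24.4 CPM in C1041G/+ and 397 ± 87.4 CPM in wild-type ascending aorta (SD, n = 4 each). Agt had 1 to 28 counts per library in the aorta, so that the target of the oligonucleotide could not be checked here. Ascending and descending libraries carry the same numbers, 1 to 8, taken as the number of the mouse. Even numbers are C1041G/+ and odd numbers wild type. Within each group the numbers differ, so its libraries were taken to come from different mice, which the labels do not state outright. If that does not hold, the p-values measure only the spread between these libraries, which may be technical. In bulk tissue, fewer cells of a type and less RNA per cell cannot be told apart.

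Per kilobase of exon, the converting enzyme Ece1 had the highest mean level of the 6 genes in each untreated group, and Edn3 and Ece2 had the lowest ones. The mean level over the 16 untreated libraries was 57.7 CPM per kb for Ece1 and 18.7 CPM per kb for Edn1. The receptors followed at 2.77 CPM per kb for Ednrb and 2.30 CPM per kb for Ednra. Ednrb had the higher mean of the pair in 3 of the 4 groups, while in C1041G/+ descending aorta Ednra had 2.88 and Ednrb 2.46 CPM per kb. Edn3 had 0.389 and Ece2 0.130 CPM per kb over these libraries, but their order differed by region. In ascending aorta Edn3 had the lower mean, with 0.0821 CPM per kb beside 0.128 for Ece2 in C1041G/+ and 0.129 beside 0.135 in wild type. In descending aorta it had the higher mean, with 0.911 CPM per kb beside 0.140 for Ece2 in C1041G/+ and 0.436 beside 0.115 in wild type. The level of Ece2 per kb is uncertain, as another gene model covers 2937 of its 5110 exon bases on the same strand and had 0 counts. These orders of means are a description, with no test.

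**Figure D1:**
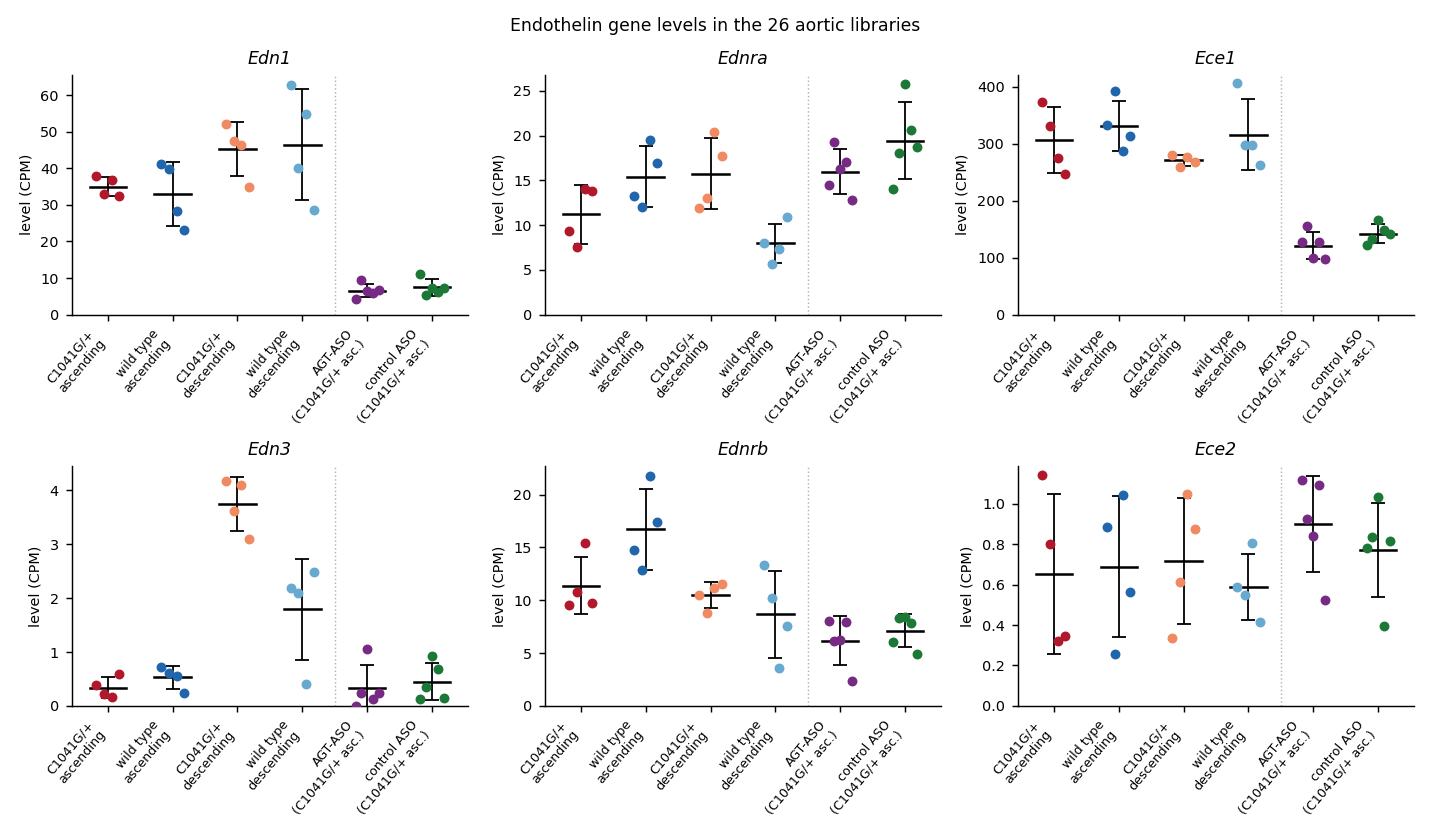
Level of each endothelin gene (CPM, linear axis from 0) in the 26 libraries, 1 point per library, with the group mean and SD; the dotted line divides the untreated groups (n = 4 each) from the antisense groups (n = 5 each). Edn3 was highest in C1041G/+ descending aorta, at 3.10 to 4.17 CPM, and Ednra was lowest in wild-type descending aorta, at 5.68 to 10.9 CPM.

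Of the 6 genes, 3 passed a test between regions (2 of 6 in C1041G/+ and 3 of 6 in wild type, where 14.8% and 15.5% of all genes did), and the sequences at their starts are shown here, each from 250 bases before to 50 bases after the start of transcription (RefSeq, GRCm38.p6). Promoter windows were found for all 6 genes. Capitals mark the only match, in these 3 windows, to 4 motifs searched on both strands: the GATA motif AGATAA, the AP-1 motif TGANTCA, the GC box GGGCGG, and the CArG box. The windows lie at chr13:42301226-42301525 on the plus strand for Edn1, chr2:174760369-174760668 on the plus strand for Edn3, and chr8:77724403-77724702 on the minus strand for Ednra, each written 5′ to 3′.
Edn1: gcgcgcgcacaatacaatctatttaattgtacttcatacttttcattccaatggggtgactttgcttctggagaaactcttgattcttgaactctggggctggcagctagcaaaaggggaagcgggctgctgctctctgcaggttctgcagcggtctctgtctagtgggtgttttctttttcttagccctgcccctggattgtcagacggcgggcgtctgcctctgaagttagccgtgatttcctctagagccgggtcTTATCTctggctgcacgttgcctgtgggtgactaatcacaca
Edn3: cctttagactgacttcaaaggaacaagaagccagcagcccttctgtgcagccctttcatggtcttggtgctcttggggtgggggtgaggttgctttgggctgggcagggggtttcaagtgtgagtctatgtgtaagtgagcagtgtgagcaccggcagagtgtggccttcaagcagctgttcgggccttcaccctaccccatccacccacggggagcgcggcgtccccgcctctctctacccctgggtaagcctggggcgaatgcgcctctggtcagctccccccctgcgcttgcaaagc
Ednra: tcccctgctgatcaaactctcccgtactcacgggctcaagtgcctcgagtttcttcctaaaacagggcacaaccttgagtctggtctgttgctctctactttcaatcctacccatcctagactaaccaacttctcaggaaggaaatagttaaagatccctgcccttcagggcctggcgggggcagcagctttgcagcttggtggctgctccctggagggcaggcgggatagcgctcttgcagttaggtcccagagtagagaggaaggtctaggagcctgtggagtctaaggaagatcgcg
The Edn1 window held 1 GATA match, read on the minus strand and lying just after the start; 11.2% of 32817 windows of this length held one. An AP-1 match was present in 7.81% of the windows, a GC box in 35.6% and a CArG box in 1.63%, and the 3 windows printed here held none of these. A match is a stretch of letters only, and says nothing of binding.

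Edn1 encodes the precursor of endothelin-1 and lies at chr13:42301476-42307990 on the plus strand (GRCm38, ENSMUSG00000021367, 2139 merged exon bases). Its level in ascending aorta was 37.8, 32.9, 36.7 and 32.5 CPM in the C1041G/+ libraries, against 41.1, 39.7, 28.2 and 23.1 CPM in the wild-type libraries. In descending aorta it was 52.2, 47.5, 46.2 and 34.8 CPM in C1041G/+ and 62.7, 40.0, 54.8 and 28.5 CPM in wild type. In both regions the C1041G/+ libraries lay within the range of the wild-type libraries. The means were 35 ± 2.69 CPM in C1041G/+ and 33.0 ± 8.77 CPM in wild-type ascending aorta, and 45.2 ± 7.39 CPM in C1041G/+ and 46.5 ± 15.3 CPM in wild-type descending aorta (SD, n = 4 each).

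Edn1 did not pass the test between genotypes in either region. The log2 fold change of C1041G/+ over wild type was 0.07 ± 0.22 (SE) in ascending aorta, with an adjusted p of 0.910, and -0.05 ± 0.22 in descending aorta, with an adjusted p of 0.971 (edgeR quasi-likelihood test, Benjamini-Hochberg over 15645 genes, n = 4 each). A call in what follows means an adjusted p of at most 0.05 in this test.

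Between regions, Edn1 was lower in the ascending than in the descending aorta of all 4 C1041G/+ and all 4 wild-type mice. With the mouse as a block, Edn1 fell in wild-type ascending relative to descending aorta, by 0.46 ± 0.13 on the log2 scale (adjusted p = 0.0249, edgeR). The difference in C1041G/+ was -0.36 ± 0.12, with an adjusted p of 0.0815, and of its 8 alternatives it passed only without the count filter (-0.35, adjusted p = 0.00092). The genotype by region interaction, which tests whether these 2 values differ, was 0.11 ± 0.18 (adjusted p = 0.902). The wild-type call was lost without mouse 1 (-0.41, adjusted p = 0.113), without mouse 5 (-0.30, adjusted p = 0.111), without mouse 7 (-0.51, adjusted p = 0.0579) and without the mouse block (-0.49, adjusted p = 0.217). In mouse 3 the ratio of ascending to descending was 0.992, while in mouse 5 it was 0.515.

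Endothelial markers were also lower in ascending aorta. Of 10 endothelial markers, 7 were called lower and 2 higher in wild-type ascending relative to descending aorta, with a median log2 fold change of -0.45, and 3 were lower and 2 higher in C1041G/+, with a median of -0.31. Their summed level was 1430 to 2180 CPM in C1041G/+ ascending and 1561 to 2055 CPM in wild-type ascending aorta, against 2176 to 2549 CPM in C1041G/+ descending and 2542 to 3399 CPM in wild-type descending aorta. Pecam1 weighed heavily in this sum, with means of 676 and 727 CPM in C1041G/+ and wild-type ascending and 958 and 1281 CPM in C1041G/+ and wild-type descending aorta. No endothelial marker was at 0 in a group. As a percentage of this sum, Edn1 was 2.06 ± 0.42% in C1041G/+ ascending, 1.82 ± 0.35% in wild-type ascending, 1.99 ± 0.44% in C1041G/+ descending and 1.57 ± 0.34% in wild-type descending aorta (SD, n = 4 each). The part of endothelial content in the region difference was not tested.

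Edn3 encodes the precursor of endothelin-3 and lies at chr2:174760619-174784042 on the plus strand (ENSMUSG00000027524, 4113 merged exon bases). It was scarce in ascending aorta: the 4 C1041G/+ libraries had 0.381, 0.214, 0.161 and 0.594 CPM, against 0.730, 0.604, 0.547 and 0.235 CPM in the 4 wild-type libraries. In descending aorta it had 4.17, 3.61, 4.09 and 3.10 CPM in C1041G/+, against 2.19, 2.09, 0.402 and 2.48 CPM in wild type. These descending levels rest on 75, 65, 78 and 64 counts in C1041G/+ and on 41, 42, 7 and 48 counts in wild type. Every C1041G/+ descending library was above every wild-type descending library, while the ascending libraries overlapped. Wild-type mouse 5 stood apart, with a descending level as low as those of ascending aorta.

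Edn3 was lower in ascending than in descending aorta in both genotypes, 10.9-fold in C1041G/+ and 3.16-fold in wild type. In C1041G/+ the means were 0.338 ± 0.195 CPM in ascending and 3.75 ± 0.494 CPM in descending aorta, a log2 fold change of -3.45 ± 0.46 (adjusted p = 0.000143, edgeR with mouse block). All 4 C1041G/+ mice showed this direction, and the call held in all 8 alternatives run, with adjusted p values up to 0.00171. In wild type the means were 0.529 ± 0.210 CPM in ascending and 1.79 ± 0.941 CPM in descending aorta, a log2 fold change of -1.66 ± 0.46 (adjusted p = 0.0245), with 3 of 4 mice lower in ascending aorta. The wild-type call was lost without mouse 1 (-1.69, adjusted p = 0.0729), without mouse 3 (-1.61, adjusted p = 0.0786) and without mouse 7 (-1.17, adjusted p = 0.133).

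Between genotypes, Edn3 in descending aorta had a log2 fold change of 1.05 ± 0.40 with an adjusted p of 0.308, so that the separation of the 2 groups did not pass the test. The descending value was 0.72 without wild-type mouse 5, whose library had 7 counts, and 1.24 without wild-type mouse 7. In ascending aorta the difference was -0.63 ± 0.53 (adjusted p = 0.598, edgeR), and -1.02 without C1041G/+ mouse 8 or -0.41 without C1041G/+ mouse 6. The interaction was -1.79 ± 0.68 with an adjusted p of 0.447, and passed only when no filter on low counts was used (-1.78, adjusted p = 0.0216). The range of its adjusted p over 12 alternatives was 0.0216 to 0.833. Its value was -1.32 without wild-type mouse 5 and -2.28 without C1041G/+ mouse 8. Among all genes tested, 7.19% had no overlap between C1041G/+ and wild-type libraries in descending aorta.

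Ednra encodes the ETA receptor and lies at chr8:77663031-77724464 on the minus strand (ENSMUSG00000031616, 5476 merged exon bases). In ascending aorta its level was 9.36, 7.55, 14 and 13.9 CPM in C1041G/+ mice 2, 4, 6 and 8, against 13.2, 12.1, 19.5 and 16.9 CPM in wild-type mice 1, 3, 5 and 7. In descending aorta it was 11.9, 13, 20.4 and 17.7 CPM in the same C1041G/+ mice, against 8.01, 5.68, 7.29 and 10.9 CPM in the same wild-type mice. The genotypes overlapped in ascending aorta and did not overlap in descending aorta, where every C1041G/+ library was the higher. Of all genes tested, 7.19% had no overlap between genotypes in descending aorta.

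Ednra differed along the aorta in opposite directions in the 2 genotypes. The ratio of ascending to descending was 0.786, 0.580, 0.690 and 0.781 in C1041G/+ mice 2, 4, 6 and 8, against 1.65, 2.12, 2.67 and 1.55 in wild-type mice 1, 3, 5 and 7. All 4 C1041G/+ mice were thus lower and all 4 wild-type mice higher in ascending than in descending aorta. Of 15202 genes with a count in every untreated library, 0.809% showed such a full split in either direction. The mean log2 ratio per mouse was -0.51 ± 0.21 in C1041G/+ and 0.96 ± 0.36 in wild type (SD, n = 4 mice each).

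**Figure D2:**
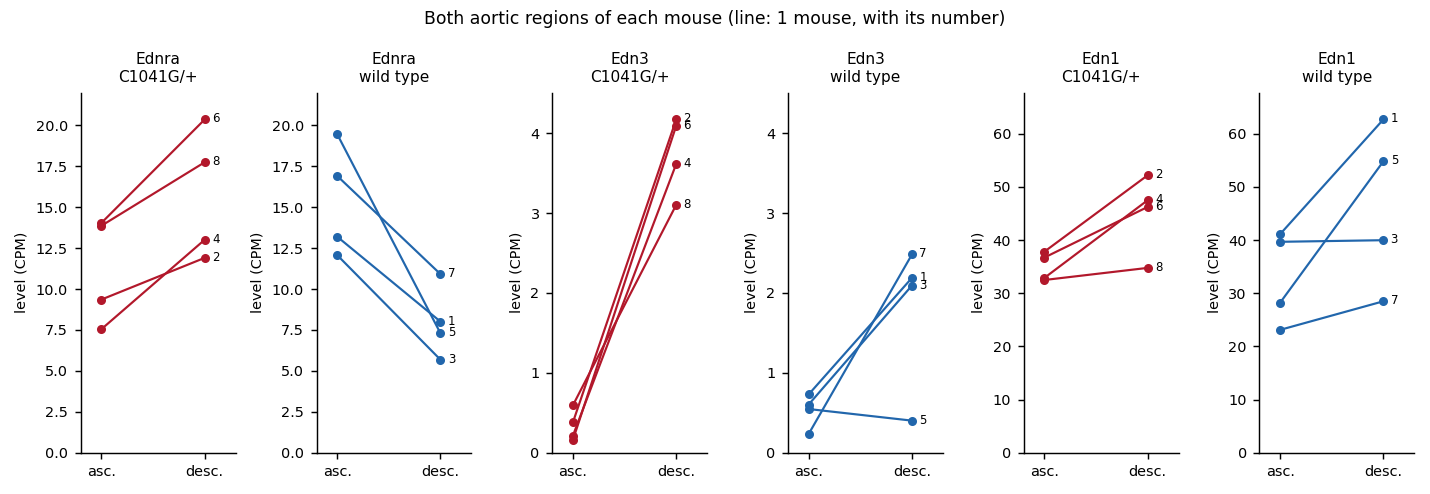
Levels of Ednra, Edn3 and Edn1 (CPM, linear axis from 0) in the ascending and descending aorta of each untreated mouse, 1 line per mouse with its number, C1041G/+ in red and wild type in blue. Ednra lines slope upward in all 4 C1041G/+ mice and downward in all 4 wild-type mice; Edn3 lines slope upward in 7 of 8 mice, mouse 5 being the other.

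The interaction of genotype and region for Ednra was -1.46 ± 0.18 on the log2 scale, the genotype difference in ascending minus that in descending aorta (adjusted p = 0.00642, edgeR with mouse block). Only 0.0831% of genes, 13 of 15645, passed this test, and Ednra was the only 1 of the 6 endothelin genes among them, with the third smallest p. Leaving out any 1 of the 8 mice kept the call, with values between -1.58 and -1.31 and adjusted p values between 0.0045 and 0.041. Without the mouse block the value was nearly the same, -1.45 ± 0.34, but the adjusted p was 0.360 and the call was lost.

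Within each genotype the region difference of Ednra was called. It fell in C1041G/+ ascending relative to descending aorta, with means of 11.2 ± 3.26 CPM in ascending and 15.8 ± 3.98 CPM in descending aorta and a log2 fold change of -0.50 ± 0.13 (adjusted p = 0.0159, edgeR with mouse block). It rose in wild-type ascending relative to descending aorta, with means of 15.4 ± 3.4 CPM in ascending and 7.97 ± 2.19 CPM in descending aorta and a log2 fold change of 0.96 ± 0.13 (adjusted p = 0.000123). The wild-type call held in all 8 alternatives. The C1041G/+ call was lost without mouse 4 (-0.41, adjusted p = 0.103), without mouse 6 (-0.48, adjusted p = 0.0700) and without the mouse block (-0.49, adjusted p = 0.260).

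Between genotypes within a region, where the mouse cannot be a fixed block, Ednra was not called. In descending aorta the log2 fold change of C1041G/+ over wild type was 0.98 ± 0.24, a 1.97-fold difference, with an adjusted p of 0.0654. In ascending aorta it was -0.47 ± 0.24 with an adjusted p of 0.342. The descending value passed with DESeq2 (adjusted p = 0.00443) and without wild-type mouse 7 (adjusted p = 0.0341), and the range over its 13 alternatives was 0.00443 to 0.198. With the mouse as a random block the descending value was 0.99 (adjusted p = 0.0528, limma).

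Fibroblast and Schwann cell markers differed along the aorta of wild-type mice in the same direction as Ednra. Heart muscle (6 of 8 higher), mesothelial (7 of 7) and melanocyte markers (3 of 4 tested) did so as well. In C1041G/+ these 3 lists had 6, 7 and 2 markers higher in ascending aorta. Of 6 fibroblast markers, 4 were higher and 0 lower in wild-type ascending relative to descending aorta, and 1 was higher in C1041G/+. Their summed level was 4059 to 4967 CPM in C1041G/+ ascending, 4936 to 6935 CPM in wild-type ascending, 3987 to 5407 CPM in C1041G/+ descending and 3190 to 6245 CPM in wild-type descending aorta. Of 6 Schwann cell markers, 4 were higher in wild-type ascending aorta and 0 changed in C1041G/+. Their summed level was 14 to 22.2 CPM in C1041G/+ ascending, 22.0 to 30.4 CPM in wild-type ascending, 13.7 to 22.6 CPM in C1041G/+ descending and 9.94 to 17.3 CPM in wild-type descending aorta. The interaction was called for 0 of the 6 fibroblast markers (median log2 value -0.51), 0 of the 6 Schwann cell markers (median -1.24) and 0 of the 8 smooth muscle markers (median 0.11). For heart muscle, mesothelial and melanocyte markers the interaction was called for 0 as well, with medians of -0.39, -0.72 and -2.33. No fibroblast, Schwann cell or smooth muscle marker was at 0 in a group. The part of any of these cell types in the Ednra result was not tested.

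Ednrb encodes the ETB receptor and lies at chr14:103814625-103844402 on the minus strand (ENSMUSG00000022122, 4266 merged exon bases). Its level in ascending aorta was 9.57, 10.8, 15.4 and 9.75 CPM in C1041G/+, against 14.8, 12.9, 21.7 and 17.4 CPM in wild type. In descending aorta it was 10.5, 8.79, 11.2 and 11.5 CPM in C1041G/+, against 13.3, 10.2, 3.62 and 7.60 CPM in wild type. The groups overlapped in both regions, and wild-type mouse 5 had both the highest ascending and the lowest descending level.

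Ednrb passed no test in the main fits. The log2 fold change of C1041G/+ over wild type was -0.57 ± 0.28 in ascending aorta (adjusted p = 0.326) and 0.26 ± 0.28 in descending aorta (adjusted p = 0.835, edgeR). The descending value was 0.012 without wild-type mouse 5 and 0.54 without wild-type mouse 1. The region difference, ascending over descending, was 0.10 ± 0.34 in C1041G/+ (adjusted p = 0.903, edgeR with mouse block), where 2 mice were higher and 2 lower. In wild type it was 1.00 ± 0.35 with an adjusted p of 0.10, all 4 mice being higher in ascending aorta. Without mouse 5 it was 0.56 (adjusted p = 0.0808). This wild-type value passed with DESeq2 (adjusted p = 0.0472), without the mouse block (adjusted p = 0.0372), without mouse 1 (adjusted p = 0.0357) and without the count filter (adjusted p = 1.78e-13), and the adjusted p values of the other 4 alternatives reached 0.305. The interaction was -0.90 ± 0.49 (adjusted p = 0.663), and -0.46 without wild-type mouse 5. It passed only without the count filter (adjusted p = 1.19e-04), and its other 11 alternatives gave 0.462 to 0.966. The fit without the filter gave nearly the same log2 values with far smaller standard errors, 0.13 in place of 0.35 for the wild-type difference and 0.18 in place of 0.49 for the interaction, and the cause was not tested.

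Ece1 encodes the converting enzyme ECE1 and lies at chr4:137862237-137965229 on the plus strand (ENSMUSG00000057530, 5300 merged exon bases). In ascending aorta its level was 374, 331, 275 and 246 CPM in C1041G/+, against 333, 392, 288 and 313 CPM in wild type. In descending aorta it was 281, 258, 276 and 269 CPM in C1041G/+, against 406, 297, 297 and 262 CPM in wild type. The compared groups overlapped, and the C1041G/+ descending libraries were the closest to each other, with an SD of 9.76 CPM on a mean of 271 CPM. Ece1 was called in none of the 5 untreated comparisons. Its log2 fold changes of C1041G/+ over wild type were -0.13 ± 0.14 in ascending aorta (adjusted p = 0.697) and -0.23 ± 0.14 in descending aorta (adjusted p = 0.613). Those of ascending over descending were 0.16 ± 0.11 in C1041G/+ (adjusted p = 0.424, edgeR with mouse block) and 0.09 ± 0.11 in wild type (adjusted p = 0.703), and the interaction was 0.07 ± 0.16 (adjusted p = 0.927).

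Set against the summed endothelial markers, Ece1 amounted to 17.6 ± 1.91% of that sum in C1041G/+ ascending and 18.4 ± 0.550% in wild-type ascending aorta, against 11.9 ± 0.955% in C1041G/+ descending and 10.8 ± 0.925% in wild-type descending aorta (SD, n = 4 each). These percentages are a description, with no test, and rest on a sum in which Pecam1 weighed heavily.

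**Figure D3:**
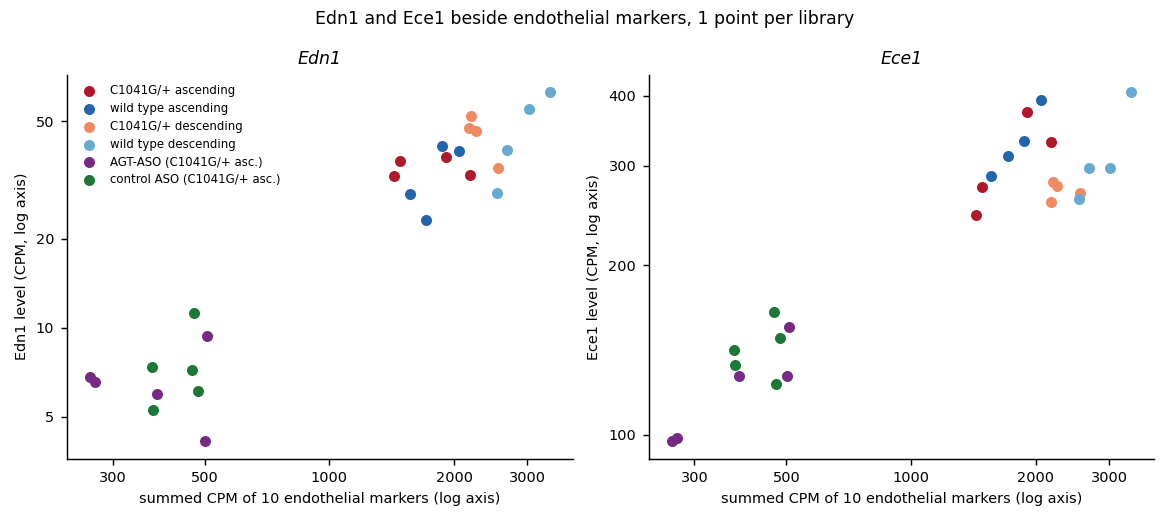
Level of Edn1 (left) and Ece1 (right) in CPM against the summed CPM of 10 endothelial markers, both on log axes, 1 point per library of the 6 groups. The 10 antisense libraries lie apart at the lower left, with marker sums of 264 to 506 CPM, and the 16 untreated libraries at the upper right, with 1430 to 3399 CPM.

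Ece2 encodes a related enzyme that works at acidic pH and is known mainly from neural tissue; it lies at chr16:20629828-20646485 on the plus strand (ENSMUSG00000022842, 5110 merged exon bases). It had 6 to 27 counts in each of the 26 libraries. The level was 0.654 ± 0.394 CPM in C1041G/+ ascending, 0.688 ± 0.350 CPM in wild-type ascending, 0.717 ± 0.312 CPM in C1041G/+ descending and 0.588 ± 0.162 CPM in wild-type descending aorta (SD, n = 4 each). No comparison called it, with adjusted p values of 0.884 to 0.970 in the untreated fits. At these counts a difference of the size of its errors, 0.48 to 0.73 on the log2 scale, was not detectable. The annotation places a protein-coding gene model, Gm49333, over 2937 of its exon bases on the same strand, with 0 counts in every library, so that the counting of Ece2 is uncertain. Models on the opposite strand overlap Edn1 and Ednra by 35 and 91 exon bases and had at most 6 and 19 counts.

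Between genotypes, the 6 endothelin genes had 0 calls in ascending aorta, where 2.19% of genes were called, and 0 calls in descending aorta, where 1.21% were. The genotypes were free of overlap for 0 of the 6 in ascending aorta, against 9.65% of genes. In descending aorta they were so for Edn3 and Ednra, 2 of the 6, against 7.19% of genes. Their median log2 fold change was -0.30 in ascending aorta, against -0.01 for all genes, and 0.28 in descending aorta, against 0.00 for all genes. Between regions, 2 of the 6 were called in C1041G/+, against 14.8% of genes, and 3 of the 6 in wild type, against 15.5% of genes. The calls were Edn3 and Ednra in C1041G/+, and Edn1, Edn3 and Ednra in wild type. Of these, both C1041G/+ calls were lower in ascending aorta, as were 5.78% of all genes, and 2 of the 3 wild-type calls, as were 5.48%. The regions did not overlap for Edn3 in C1041G/+ and for Ednra in wild type, 1 of the 6 each, against 14.4% and 14.6% of genes. The region comparisons and the interaction use the same 16 libraries. Ascending libraries of both genotypes also held more heart muscle and mesothelial RNA: 6 of 8 heart muscle and all 7 mesothelial markers were higher than in descending aorta in each genotype. Summed heart muscle markers were 269 to 1000 CPM in ascending and 77.5 to 242 CPM in descending libraries, and summed mesothelial markers 279 to 569 CPM in ascending and 5.51 to 23.4 CPM in descending libraries. Of 5 brown adipocyte markers, 2 were lower in ascending aorta of each genotype, and 0 of 6 macrophage markers were called. The part of these tissues in the region calls was not tested.

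**Figure D4:**
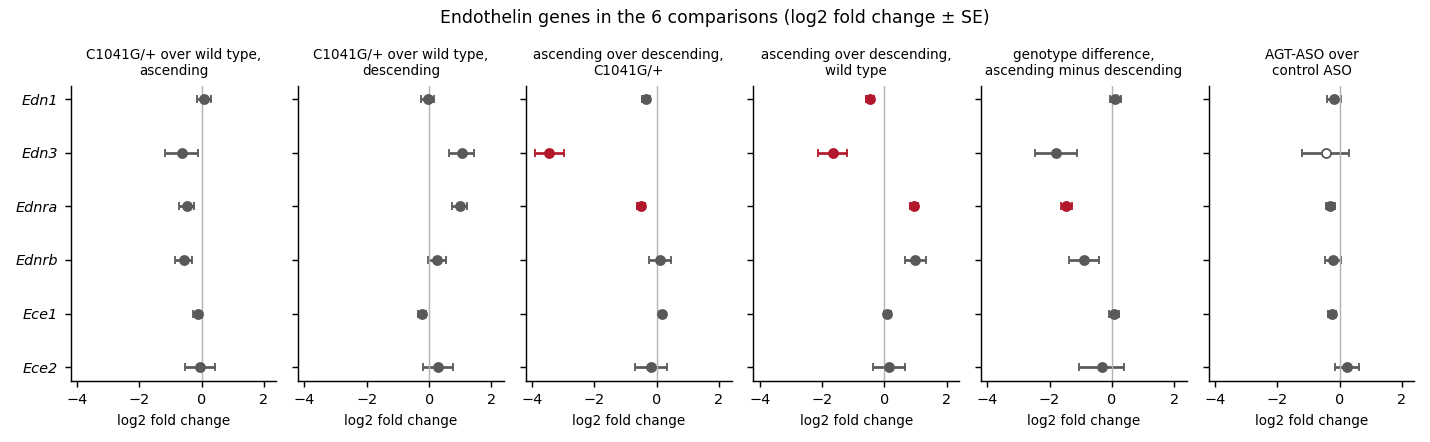
Log2 fold change ± SE of each endothelin gene in the 6 comparisons, with red points for an adjusted p of at most 0.05 and the open point for Edn3 in the antisense comparison, fitted without the filter on low counts. Ednra lies at -0.50 in the region difference of C1041G/+, at 0.96 in that of wild type and at -1.46 in the interaction.

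The antisense libraries were compared apart, AGT-ASO over control ASO, in C1041G/+ ascending aorta. None of the 5 endothelin genes that passed the count filter was called, where 0.0668% of 14981 genes were called. Edn1 had 4.14, 9.40, 6.54, 5.98 and 6.83 CPM with AGT-ASO, against 11.2, 5.28, 7.17, 6.10 and 7.38 CPM with control ASO. Ednra had 14.5, 19.3, 16.3, 17.1 and 12.8 CPM with AGT-ASO, against 14, 18.1, 25.8, 20.6 and 18.7 CPM with control ASO. Both genes overlapped between the treatments. The log2 fold change was -0.19 ± 0.22 for Edn1 (adjusted p = 0.777) and -0.30 ± 0.15 for Ednra (adjusted p = 0.440, edgeR).

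Ednrb averaged 6.16 ± 2.32 CPM in AGT-ASO libraries and 7.10 ± 1.56 CPM in control ASO libraries (SD, n = 5 each), a log2 fold change of -0.21 ± 0.27 (adjusted p = 0.798, edgeR). Ece1 averaged 121 ± 23.9 CPM in AGT-ASO libraries and 142 ± 16.1 CPM in those with control ASO, a log2 fold change of -0.24 ± 0.13 (adjusted p = 0.456). Ece2 averaged 0.899 ± 0.239 CPM in AGT-ASO libraries and 0.772 ± 0.231 CPM in those with control ASO, a log2 fold change of 0.23 ± 0.38 (adjusted p = 0.854). Edn3 did not pass the filter, with 0, 0.231, 1.06, 0.131 and 0.233 CPM with AGT-ASO, against 0.130, 0.352, 0.918, 0.686 and 0.153 CPM with control ASO. The count of 0 allows up to 3 counts in that library, a level of up to 0.146 CPM, counting error alone. Fitted without the filter, Edn3 differed by -0.45 ± 0.75 (adjusted p = 0.844). The treatments overlapped for all 6 genes, where 2.5% of genes did not overlap. Heart muscle markers, at 319 to 640 CPM in AGT-ASO libraries and 654 to 1263 CPM in control ASO libraries over 8 genes, did not overlap, though 0 of the 7 tested were called, and their part was not tested.

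Edn1 and Ece1 stood lower in the antisense experiment than in untreated ascending aorta of the same genotype. The mean level of untreated C1041G/+ ascending aorta was 4.99 times that of the 10 antisense libraries for Edn1 and 2.33 times for Ece1, while the ratio was 1.72 for Ednrb, 0.866 for Edn3, 0.782 for Ece2 and 0.632 for Ednra. The summed endothelial markers were 264 to 506 CPM in AGT-ASO libraries and 373 to 483 CPM in control ASO libraries. Edn1 made up 1.84 ± 0.703% of that sum in AGT-ASO libraries and 1.71 ± 0.458% in control ASO libraries (SD, n = 5 each), both means within those of the untreated groups. Ece1 made up 32.4 ± 4.65% with AGT-ASO and 33.1 ± 4.67% with control ASO, above the untreated groups. Mitochondrial genes took 3.76% to 7% of counts in AGT-ASO libraries and 5.52% to 11.1% in control ASO libraries, against 2.51% to 3.22% in untreated C1041G/+ ascending libraries, and their part was not tested. The 2 experiments share no group, so that handling, oligonucleotide and batch cannot be told apart, and no test was made between them.

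Ordered by mean level over the 6 groups, neighbouring groups overlapped at nearly every step. The exceptions were Edn1, whose lowest untreated group, wild-type ascending aorta, lay above control ASO, and Ece1, whose lowest untreated group, C1041G/+ descending aorta, did so too. The third exception was Edn3, whose highest group, C1041G/+ descending aorta, lay above wild-type descending aorta. Ednra ran from 16 ± 2.50 CPM in AGT-ASO and 19.4 ± 4.29 CPM in control ASO, its highest groups, down to 7.97 ± 2.19 CPM in wild-type descending aorta, with each neighbour overlapping the next.

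Of 73 further genes of the endothelin pathway, arranged by role, 66 were tested. Genotype changed 2 of them in ascending aorta (3.03%, both lower) and 1 in descending aorta (1.52%, lower), against the 2.19% and 1.21% of all genes given above. Rgs5, which limits signalling of G protein-coupled receptors in mural cells, averaged 86.2 ± 18.7 CPM in C1041G/+ and 217 ± 6.83 CPM in wild-type ascending aorta (SD, n = 4 each). It fell by 1.34 ± 0.14 on the log2 scale there (adjusted p = 6.06e-05, edgeR). In descending aorta Rgs5 averaged 543 ± 52.6 CPM in C1041G/+ and 1089 ± 182 CPM in wild type and fell by 1.01 ± 0.14 (adjusted p = 0.000497). Foxo1, a transcription factor known to act on Edn1, averaged 53.9 ± 4.38 CPM in C1041G/+ and 81.5 ± 9.32 CPM in wild-type ascending aorta and fell by 0.61 ± 0.09 (adjusted p = 0.000879).

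Between regions, 6 of the 66 pathway genes were higher and 9 lower in C1041G/+ ascending relative to descending aorta (22.7% called, against 14.8% of all genes), and 6 were higher and 11 lower in wild type (25.8% called, against 15.5% of all genes). The median log2 fold change of the 66 was -0.06 in C1041G/+ and -0.03 in wild type, against -0.01 for all genes in both. Among the genes that dampen receptor signalling, Rgs5 fell in both genotypes, with log2 fold changes of -2.67 ± 0.10 in C1041G/+ and -2.31 ± 0.10 in wild type. Rgs5 is also 1 of 4 pericyte markers, whose summed level was 591 to 818 CPM in C1041G/+ ascending, 739 to 932 CPM in wild-type ascending, 1185 to 1360 CPM in C1041G/+ descending and 1698 to 2057 CPM in wild-type descending aorta. Of the 4, 3 were lower in ascending aorta of each genotype, Rgs5 among them. Rgs5 weighed heavily in the descending sums, with means of 543 CPM in C1041G/+ and 1089 CPM in wild type, against 86.2 and 217 CPM in ascending aorta. The sum is thus no measure of pericytes apart from Rgs5. Rgs4 fell by 0.37 ± 0.10 in C1041G/+ (adjusted p = 0.0272, edgeR), and Rgs2, Rgs3 and the kinase gene Grk6 fell in wild type, with log2 fold changes of -0.52 ± 0.12, -0.29 ± 0.07 and -0.29 ± 0.08. All 4 Rgs5 calls held in every alternative. Without the mouse block the calls of Rgs4, Rgs2 and Grk6 were lost. Rgs4 was also lost without mouse 2, 6 or 8, Rgs2 without mouse 1, Rgs3 without mouse 5 and Grk6 without mouse 5 or 7, with adjusted p values up to 0.560, 0.0543, 0.0706 and 0.137 over their alternatives.

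Of 27 tested G protein and effector genes, 2 were higher and 1 lower in C1041G/+ ascending aorta (11.1% called, against 14.8% of all genes), and 1 was higher and 2 lower in wild type (11.1% called, against 15.5% of all genes). Plcb1, a phospholipase C that Gq activates, rose in ascending aorta by 0.27 ± 0.08 in C1041G/+ and 0.42 ± 0.08 in wild type. Cacna1c, the L-type calcium channel of smooth muscle, fell, with log2 fold changes of -0.48 ± 0.09 in C1041G/+ and -0.36 ± 0.09 in wild type. Plcb2, a phospholipase C of blood cells, rose by 1.3 ± 0.35 in C1041G/+, and Gna11, a Gq-family subunit, fell by 0.21 ± 0.06 in wild type. In the 5-gene endothelial arm, Cav1, the caveolae protein that binds nitric oxide synthase, fell too, at -0.27 ± 0.07 in C1041G/+ and -0.30 ± 0.07 in wild type. The wild-type calls of Plcb1 and Cav1 held in every alternative. Without the mouse block the call of Cacna1c was lost in C1041G/+ (adjusted p = 0.126) and in wild type (adjusted p = 0.249), and those of Plcb1 and Cav1 in C1041G/+. In C1041G/+, Plcb1 was also lost with DESeq2 and without mouse 4, 6 or 8, Cav1 without mouse 2, 6 or 8 and Plcb2 without mouse 2 or 8, with adjusted p values up to 0.191, 0.115 and 0.112. Gna11 was lost without the count filter and without mouse 1, 3 or 5, with adjusted p values up to 0.161, and Cacna1c in wild type also without mouse 5.

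Of 9 transcription factors known to act on Edn1, 1 was higher and 3 were lower in C1041G/+ ascending aorta (44.4% called, against 14.8% of all genes), and 1 was higher and 2 were lower in wild type (33.3% called, against 15.5% of all genes). Gata2 averaged 24.2 ± 5.41 CPM in ascending and 32.6 ± 3.54 CPM in descending C1041G/+ aorta and fell by 0.45 ± 0.13 (adjusted p = 0.0299, edgeR). The motif AGATAA of its family occurs in the Edn1 window printed above, as in 11.2% of windows. In wild type Gata2 averaged 30.7 ± 6.22 CPM in ascending and 40.6 ± 7.36 CPM in descending aorta and fell by 0.40 ± 0.12 (adjusted p = 0.0490). Smad3, a mediator of TGF-beta, rose by 0.32 ± 0.07 in C1041G/+ and 0.29 ± 0.07 in wild type. Fos, an AP-1 subunit, fell, at -0.29 ± 0.09 in C1041G/+ and -0.28 ± 0.09 in wild type, and Foxo1 fell by 0.29 ± 0.07 in C1041G/+. Without the mouse block the calls of Gata2, Fos and Smad3 were lost in both genotypes, Smad3 with an adjusted p of 0.190 in C1041G/+. With DESeq2 size factors Gata2 and Fos were lost in wild type, and with the DESeq2 test Fos in both genotypes. Gata2 was also lost without mouse 4, 6 or 8 in C1041G/+ and without mouse 1, 5 or 7 in wild type, with adjusted p values up to 0.153 and 0.233. Fos was also lost without any 1 of the C1041G/+ mice and without wild-type mouse 1 or 5, with values up to 0.801 and 0.864, Smad3 in wild type without mouse 5 (up to 0.197 over its alternatives) and Foxo1 between regions without mouse 2 or 8 (up to 0.0743). Gata2 is also expressed by endothelium, whose markers ran in the same direction. The part of any of these factors, or of endothelial content, in the Edn1 levels was not tested.

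Neural crest and melanocyte partners of the Edn3 and Ednrb pair were called between regions in 5 of 7 tested genes of each genotype (71.4%), against 14.8% of all genes in C1041G/+ and 15.5% in wild type. In detail, 3 were higher and 2 lower in C1041G/+ ascending aorta, and 4 were higher and 1 lower in wild type. Dct, an enzyme of melanin synthesis, had 142 counts over the 4 ascending libraries and 1 count over the 4 descending libraries of C1041G/+, and 686 counts in ascending and 0 in descending libraries of wild type. Tyrp1, another melanin enzyme, had 35 counts in ascending and 2 in descending libraries of C1041G/+, and 195 in ascending and 1 in descending libraries of wild type. Ret, the receptor tyrosine kinase of glial cell-derived factors, rose by 1.83 ± 0.24 in C1041G/+ and 1.97 ± 0.23 in wild type, and Sox10, a neural crest factor, by 1.87 ± 0.47 in wild type. Mitf, a melanocyte factor that other cells also express, fell, at -0.66 ± 0.09 in C1041G/+ and -0.31 ± 0.09 in wild type. Kit, the other lower gene in C1041G/+, fell by 1.01 ± 0.23 there (adjusted p = 0.00744, edgeR). Dct in C1041G/+ was lost without the mouse block (adjusted p = 0.0537), and Sox10 without mouse 3 or 5 (adjusted p up to 0.0567). Kit in C1041G/+ and Mitf in wild type, each in place 5 by p, were not among the calls followed through the alternatives. The summed level of 6 melanocyte markers was 1.14 to 10.2 CPM in C1041G/+ ascending, 4.33 to 25.1 CPM in wild-type ascending, 1.00 to 1.36 CPM in C1041G/+ descending and 0.534 to 1.65 CPM in wild-type descending aorta. Dct and Slc45a2 were at 0 in all wild-type descending libraries, and Slc45a2 in all C1041G/+ descending libraries. Edn3 thus had its higher level in the region where these melanin genes were at or near 0, and Ednrb in wild type had its higher mean where they were detected; the part of these cells was not tested.

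Of the genes for precursor processing (7 of 9 tested) and peptide breakdown (2 of 5 tested), none was called in any of the 6 comparisons. No pathway gene was called for the interaction (0 of 66, median log2 value 0.01) or with AGT-ASO. The lists are described by these counts, with no test of a list. They were chosen with earlier results of these data known, so their shares are no independent evidence. Dct and Tyrp1 are also among the melanocyte markers and Sox10 among the Schwann cell markers.

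The genes of most like pattern were sought by Pearson's r of log2(CPM + 0.1) over the 16 untreated libraries, among 12768 genes with a mean of at least 1 CPM. For Ednra these were Hecw2 (r = 0.894), Matn2 (r = 0.886) and Rtn4rl1 (r = 0.872), and after the 4 group means were removed r was 0.880, 0.925 and 0.873. For Edn3 they were Islr2 (r = 0.945), Tspan11 (r = 0.919) and Slco2b1 (r = 0.911), with 0.784, 0.743 and 0.875 after removal. For Ednrb they were Prune2, Abca8b and Armh4, at r of 0.890, 0.886 and 0.878. For Edn1 they were Gcnt1, Arl5a and Mutyh, at r of 0.827, 0.826 and 0.818, and for Ece1 they were F11r, Adgrg1 and E2f2, at r of 0.856, 0.835 and 0.772. For Ece2 they were Dhx58, Ddx56 and Lpcat2, at r of 0.789, 0.770 and 0.758, on counts of 6 to 27. These are the highest of many correlations over libraries that share mice, given as a description.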

How the data were processed

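The authors deposited unnormalized counts by Ensembl identifier for each of 26 libraries. The submitters' processing notes name fastp, STAR 2.6.1d and mm10; the counter, its strand setting and its annotation were not given in the sources used here. Names, coordinates and exon lengths came from GENCODE M21 on the same build, which named 99.9% of the identifiers. From the counts, CPM were computed with TMM factors over all 26 libraries. Tests were two-sided edgeR 4.0.16 quasi-likelihood tests in R 4.3.3 (filterByExpr with a minimum count of 10, robust), adjusted by Benjamini-Hochberg over all genes tested. Genotype comparisons fitted the 4 untreated groups with 12 residual degrees of freedom and no block, so that both libraries of 1 mouse were treated as independent. In the alternative with a random mouse block, the correlation within a mouse was 0.268. Region comparisons and the interaction used the mouse number as a fixed block, with 6 degrees of freedom. The antisense libraries were fitted apart, with 8. The numbers were taken beforehand to pair the regions of 1 mouse. After removal of group means, the 8 same-numbered pairs correlated across genes at r of 0.162 to 0.305. In 6 of the 8 the ascending library matched best with the descending library of its own number, and mice 3 and 7 did not. Other pairs had a mean of -0.0331, but removal of group means itself pushes that mean below 0, so it is no independent contrast. Alternatives were no filter, DESeq2 1.42.0 size factors and test, a random mouse block (limma 3.58.1), no block, only the libraries of 1 region, and leaving out each mouse or library. The pathway genes named are the up to 4 called genes of smallest p per role and comparison. Kit in C1041G/+ and Mitf in wild type, in place 5 between regions, are named besides. The genes and lists were chosen with earlier results of these data known. Likeness leaves out unnamed gene models. Library depth limits Edn3 and Ece2, and floors cover counting error only.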

Additional observations from a re-analysis of the deposited data

Results flagged for a closer look

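Ednra differed between genotypes in its regional pattern. The log2 ratio of ascending to descending aorta was -0.51 ± 0.21 in C1041G/+ and 0.96 ± 0.36 in wild type (SD, n = 4 mice each), and the interaction of genotype and region was -1.46 ± 0.18 (adjusted p = 0.00642, edgeR with mouse block). All 4 C1041G/+ mice ran one way and all 4 wild-type mice the other.

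Edn3 in AGT-ASO library 18 was at 1.06 CPM, while the other 4 AGT-ASO libraries lay between 0 and 0.233 CPM, a gap beyond Dixon's 95% limit. It rests on 19 counts. Of 36 sets of 1 gene in 1 group checked, it was the only one. Chance alone gives about 1 in 20 such sets, so 1 in 36 is no more than chance gives.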

How the results depend on the processing

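Of 389 alternative values for the endothelin genes, over 35 gene and comparison pairs, 350 kept the direction and the side of the threshold, 11 lost a call, 9 gained one and 19 changed sign; every change of sign was in an uncalled value when 1 mouse or library was left out. Of 32 calls of named pathway genes, 13 held in every alternative, 19 were lost in at least 1 and 0 changed sign. The cause of each change was not tested. With no replicate block for the mouse, the Ednra interaction was -1.45 and the region differences of Ednra in C1041G/+ and Edn1 in wild type were -0.49 and -0.49, all 3 no longer called, while the counts of called genes between regions were 1552 in C1041G/+ and 1741 in wild type, against 2321 and 2424 with it, and 1 for the interaction, against 13. With the random replicate block, no genotype call of these genes changed. Without a filter on low counts the interaction called 428 genes and AGT-ASO 147, against 10 with it. DESeq2 called 779 genes by genotype in ascending aorta, against 342, 414 in descending aorta, against 189, 100 for the interaction and 289 with AGT-ASO.

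Leaving out 1 mouse or library gave 163 to 347 genes by genotype in ascending aorta, 6 to 46 for the interaction and 0 to 180 with AGT-ASO. The last count was 0 by edgeR without AGT-ASO library 15, 18 or 19 and without control ASO library 12, 13 or 16, with 1480 to 1961 genes at an unadjusted p of at most 0.05, and 180 without control ASO library 8. The log2 value ranged, for region in C1041G/+, from -0.55 to -0.41 in Ednra, -0.024 to 0.22 in Ednrb and -0.82 to 0.29 in Ece2. For region in wild type it ranged from -0.62 to -0.30 in Edn1, -2.13 to -1.17 in Edn3, 0.56 to 1.31 in Ednrb, -0.021 to 0.21 in Ece1 and -0.00055 to 0.47 in Ece2. For genotype, Edn1 ranged from -0.069 to 0.19 in ascending and -0.23 to 0.13 in descending aorta, Edn3 from -1.02 to -0.41 in ascending aorta, Ednrb from 0.012 to 0.54 and Ece1 from -0.31 to -0.083 in descending aorta, and Ece2 from -0.49 to 0.22 in ascending aorta. For the interaction, Edn1 ranged from -0.052 to 0.27, Ednrb from -1.21 to -0.46, Ece1 from -0.051 to 0.18 and Ece2 from -0.98 to 0.13. Depth limits Ece2 and Edn3, at 0 to 78 counts per library.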
